A study of Mus musculus with 7 samples.

Results

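The Hox genes encode homeodomain transcription factors and lie in clusters named Hoxa, Hoxb, Hoxc and Hoxd, in which genes with the same number are paralogues. In the embryo, genes with low numbers are used further towards the head and genes with high numbers further towards the tail and the ends of the limbs, and cells of adult skin keep part of this regional pattern. Fibroblasts of the dermis are known for it, and Hoxc13 is known for its role in the hair shaft. All genes whose symbol is Hox, a cluster letter and a number were taken. The array measured 33 of the 39 such mouse genes with a probe set of their own, among 18193 genes in all: 9 of 11 Hoxa, 9 of 10 Hoxb, 7 of 9 Hoxc and 8 of 9 Hoxd genes. The other genes were not analysed here. Each gene is given on its brightest probe set with a single symbol, on a log2 scale, and levels are compared between arrays for 1 gene at a time, since brightness differs between probe sets.

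Tumours of mouse skin were induced with the carcinogen DMBA and the tumour promoter TPA, and cells positive for the surface antigens Cd34 and Epcam were isolated by flow cytometry. Carcinomas, the malignant tumours, gave 4 arrays (1, 2, 3 and GFP) and papillomas, the benign tumours, gave 3 arrays (1, 2 and GFP). The labels used here give no strain, age or genotype and do not explain the tag GFP. The descriptions place the gene name Nr2f2 before each tumour type on all 7 arrays without saying what it stands for. Since separate animals are not stated either, the p-values reflect the spread between samples alone, and that spread may be technical.

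Both GFP arrays stood apart from the other 5. The 15 endothelial markers averaged 10.83 and 10.87 in them against 5.47 to 5.89 in the untagged arrays, and all 15 were called higher, with Tek and Erg at background in every untagged array. The 14 fibroblast markers averaged 9.78 to 10.81 against 5.62 to 7.27 (11 called higher), and the 8 pericyte and muscle markers 8.74 to 9.27 against 5.88 to 6.93 (6 called higher). The 12 immune markers averaged 7.04 to 7.33 against 5.76 to 6.402 (6 called higher) and the 7 melanocyte markers 6.24 to 6.34 against 5.10 to 6.10 (2 called higher). Of the 9 hair matrix markers 1 was called higher. The 12 keratinocyte markers averaged 10.09 to 10.12 against 11.43 to 11.83, with 9 called lower, and all 12 lay above background on every array. Epcam, a marker of the sort itself, was among the 9. It lay at 9.59 and 8.28 in carcinoma GFP and papilloma GFP against 10.52 to 11.97 in the untagged arrays (limma adjusted p = 0.0144). A gate on Epcam would be taken to remove endothelial cells, fibroblasts and immune cells, and why their markers were higher here was not tested. The 3' minus 5' difference of the Gapdh control probe sets, a quality measure, was 3.19 in both GFP arrays and -0.04 to 0.06 in the others. Whether it reflects the integrity of the RNA or the processing of the arrays was not tested, and neither can be told apart from the tag here. The part of these differences in the Hox values below was not tested, and in such bulk samples fewer cells of a type and less RNA per cell cannot be told apart.

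The clearest Hox difference lay in the middle of the Hoxd cluster, where the neighbours Hoxd10, Hoxd9 and Hoxd8 rose in both GFP arrays. Their promoters are shown because these genes moved together, beside that of Hoxa9, which had the widest spread of all members among the untagged arrays. Each is the 250 bases before the transcription start in RefSeq's table for GRCm38.p6, read in the direction of the gene, with matches to AGGTCA, the half-site of nuclear receptors such as Nr2f2, in capitals on either strand. The regions are chr2:74691641-74691890, chr2:74697513-74697762 and chr2:74704365-74704614 on the plus strand, and chr6:52227371-52227620 on the minus strand.
Hoxd10: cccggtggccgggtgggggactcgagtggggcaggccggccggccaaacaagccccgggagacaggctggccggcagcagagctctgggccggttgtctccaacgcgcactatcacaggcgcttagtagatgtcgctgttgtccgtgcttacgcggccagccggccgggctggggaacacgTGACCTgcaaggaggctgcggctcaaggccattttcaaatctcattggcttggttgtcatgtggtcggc
Hoxd9: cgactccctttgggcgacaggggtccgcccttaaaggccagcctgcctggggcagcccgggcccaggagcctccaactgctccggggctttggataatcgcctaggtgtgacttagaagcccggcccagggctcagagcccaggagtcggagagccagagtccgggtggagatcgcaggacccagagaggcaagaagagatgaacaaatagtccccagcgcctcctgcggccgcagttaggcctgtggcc
Hoxd8: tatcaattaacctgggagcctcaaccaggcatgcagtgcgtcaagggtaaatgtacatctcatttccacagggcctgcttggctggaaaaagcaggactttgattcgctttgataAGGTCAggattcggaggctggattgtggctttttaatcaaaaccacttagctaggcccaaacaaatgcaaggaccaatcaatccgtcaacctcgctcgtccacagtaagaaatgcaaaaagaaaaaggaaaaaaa
Hoxa9: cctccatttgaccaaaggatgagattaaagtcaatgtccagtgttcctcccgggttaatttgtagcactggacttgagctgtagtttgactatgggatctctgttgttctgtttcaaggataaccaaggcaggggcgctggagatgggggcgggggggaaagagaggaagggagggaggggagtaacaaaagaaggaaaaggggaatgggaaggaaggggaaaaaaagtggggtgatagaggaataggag
Hoxd10 and Hoxd8 had 1 AGGTCA match each, and Hoxd9 and Hoxa9 had none in this window. The half-site occurred in 14% of the 32851 promoters of the table and in 6 of the 22 Hox promoters it lists. TATAAA, the TATA box, TGATTNAT, a composite of Hox and Pbx proteins, and TAATTA, a homeodomain core, were also searched on both strands, had no match in these 4 windows, overlapped no AGGTCA match, and occurred in 12.4%, 2.82% and 4.84% of all promoters and in 3, 1 and 1 of the 22 Hox promoters. The bases G and C made up 65.6% of the Hoxd10, 65.2% of the Hoxd9, 44.4% of the Hoxd8 and 49.6% of the Hoxa9 window, against a median of 52.4% over all promoters. Of the 33 measured members, 19 had an entry. Hoxa4, Hoxb2, Hoxb3, Hoxb5, Hoxb6, Hoxb7, Hoxb9, Hoxb13, Hoxc5, Hoxc6, Hoxc8, Hoxc9, Hoxc10 and Hoxc13 had none.

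Members above background on most arrays came from the Hoxa, Hoxb and Hoxc clusters, mainly from their middle, and Hoxd genes passed only in the GFP arrays. Because the deposited values carry no detection call, a gene was counted as above background on an array where it exceeded the 95th percentile of 72 receptor genes of smell and the vomeronasal organ, a stand-in that lay between 5.13 in papilloma 1 and 6.05 in papilloma 2. On this count 15 of 33 members lay above background on 4 or more arrays, where 63.7% of all genes did, and 8 did so on all 7 arrays (52.6% of all genes). These 8 were Hoxa3, Hoxa5, Hoxa7, Hoxb2, Hoxb3, Hoxb6, Hoxc6 and Hoxc9. Hoxa3 passed narrowly in papilloma GFP, at 5.35 against a limit of 5.32, and its other probe sets passed on 2 arrays or none. Hoxa9, Hoxb4, Hoxb5, Hoxb9, Hoxc4, Hoxc5 and Hoxc8 passed on 5 or 6 arrays. Another 14 members, which include Hoxa2, Hoxb1, Hoxd1 and Hoxd3 at one end of the clusters and Hoxa10, Hoxa11, Hoxa13, Hoxb13, Hoxc10, Hoxd11, Hoxd12 and Hoxd13 at the other, passed on none (25.8% of all genes). Hoxa4 and Hoxb7 complete those 14. By paralogue number, 3 of 7 genes numbered 1 to 3, 9 of 12 numbered 4 to 8 and 3 of 14 numbered 9 to 13 lay above background on 4 or more arrays. A member that passed on none need not be silent, since probe sets of the same gene differed. For Hoxc6, 1 probe set passed on no array and another on all 7. The part of probe set brightness in this pattern by position was not tested. The count of members above background per array ran from 11 in carcinoma 3 and 13 in papilloma 2 to 18 in carcinoma GFP. Carcinoma 3 and papilloma 2 also had the highest limits and the fewest genes above them overall (59.4% and 56.5%, against 63.5% to 68.1% elsewhere). With the array median as the limit, the count on 4 or more arrays fell from 15 to 9.

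**Figure D1:**
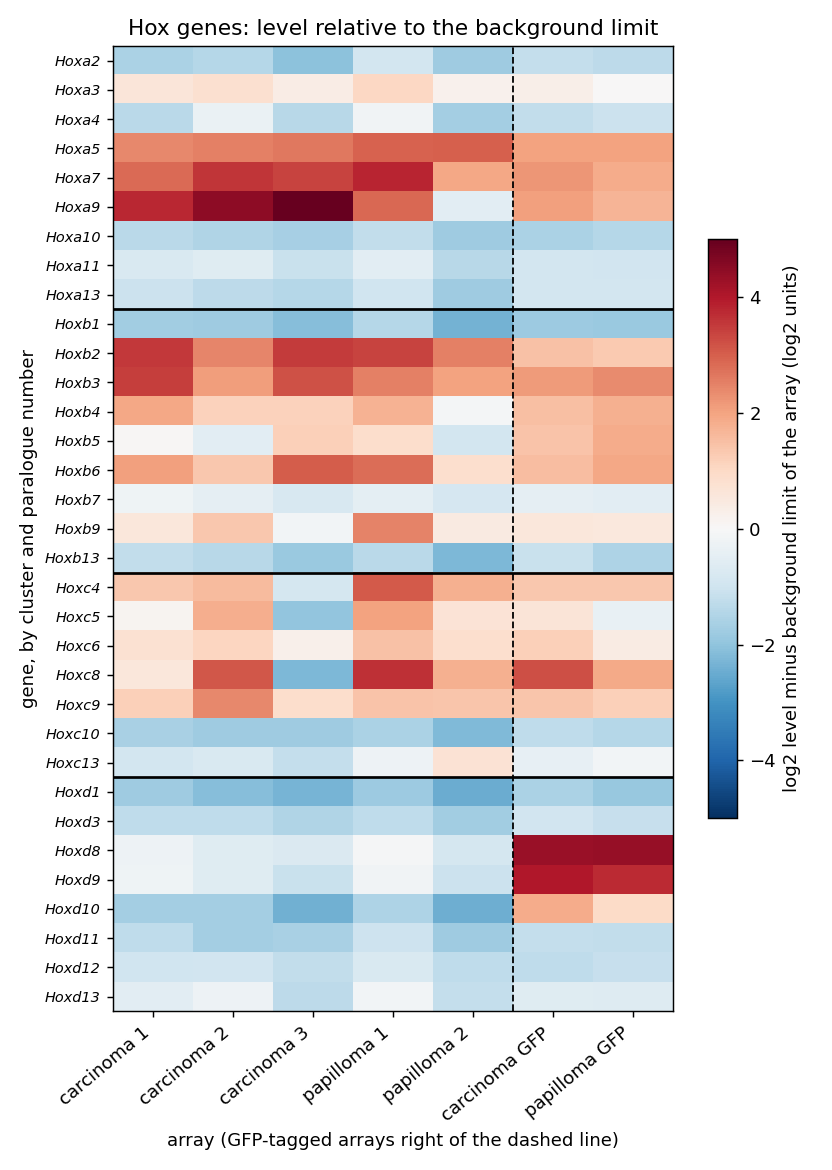
Level of the 33 measured Hox genes (rows, by cluster and paralogue number) on the 7 arrays (columns), as the log2 level minus the background limit of that array; red is above and blue below the limit. Hoxd8, Hoxd9 and Hoxd10 are red in the GFP arrays alone, and Hoxc4, Hoxc5 and Hoxc8 are blue in carcinoma 3.

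The GFP arrays were compared with the untagged arrays to see which members followed the tag, with the tumour type as a covariate. Over all genes limma called 2159 higher and 1442 lower, and 4 of 33 members were called, where 19.8% of all genes were. The 4 divide into 3 higher (11.9% of all genes) and 1 lower (7.93%), and 7 members had an unadjusted p under 0.05 (32.0%). Hoxd8, a gene of the middle of its cluster, read 9.63 on the carcinoma GFP array and 9.68 on the papilloma GFP array. The untagged arrays read 4.95, 4.85 and 5.002 for carcinoma 1, 2 and 3 and 5.07 and 5.19 for papilloma 1 and 2. Hoxd9, its neighbour and a gene known from limb patterning, lay at 9.31 and 9.04 in the GFP arrays, against 5.01, 4.85 and 4.63 in the carcinoma and 4.96 and 4.99 in the papilloma arrays. Hoxd10, the next gene, lay at 7.17 and 6.29, against 3.52, 3.75 and 3.35 in the carcinoma and 3.59 and 3.62 in the papilloma arrays. For these 3 genes the tag groups did not overlap, and all 5 untagged arrays were below the background limit. Of all genes, 2.61% showed this same pattern of detection.

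The differences of Hoxd8, Hoxd9 and Hoxd10 with the tag were 4.63 (SE 0.16, limma adjusted p = 2.33e-05), 4.28 (SE 0.19, limma adjusted p = 4.37e-05) and 3.19 (SE 0.25, limma adjusted p = 0.000392). Since the untagged arrays lay at background, these are better read as bounds: with those arrays raised to their limit, Hoxd8 was at least 17.6-fold, Hoxd9 at least 12.6-fold and Hoxd10 at least 2.31-fold higher. A second probe set of Hoxd8 gave 9.54 and 8.75 in the GFP arrays against 3.85 to 4.25 in the others. All 3 genes stayed called when either GFP array was left out, although the lone tagged array is then assumed to vary like the others.

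On either side of these genes, the other 5 measured Hoxd genes stayed at background in the GFP arrays too. Hoxd11, Hoxd12 and Hoxd13, the genes towards the tail end of the cluster, lay between 4.02 and 4.69 there and between 3.76 and 5.21 in the untagged arrays. Hoxd3 lay at 4.34 and 4.16 in the GFP arrays against 3.86 to 4.31, and Hoxd1 at 3.74 and 3.41 against 3.32 to 3.58. Their differences, from -0.40 to 0.17, did not pass the test. Hoxd4, next to Hoxd3, shares its probe sets with Hoxd3 and was not measured on its own. Hoxd3os1, an RNA transcribed opposite to Hoxd3, read 6.34 on the carcinoma GFP array and 8.25 on the papilloma GFP array, where the other 5 had 3.50 to 4.09 (limma adjusted p = 0.00155).

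**Figure D2:**
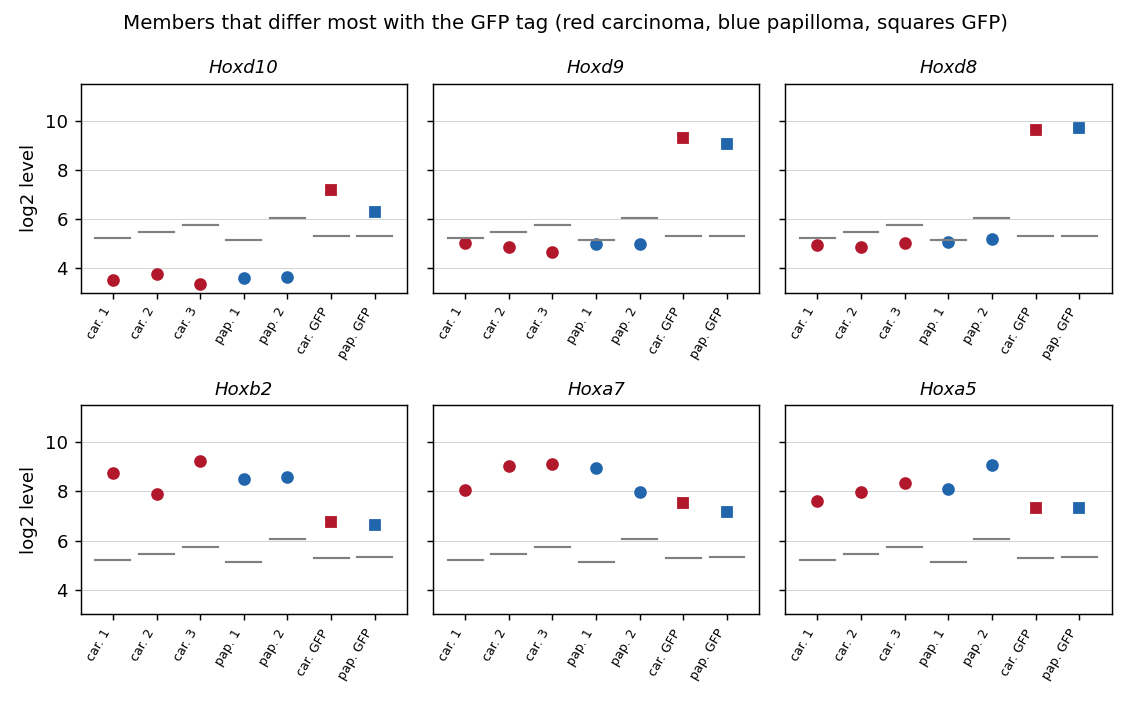
Log2 level of 6 members on each array; red marks carcinoma, blue papilloma, circles untagged and squares GFP-tagged arrays, and the grey bars mark the background limit of each array. Hoxd8, Hoxd9 and Hoxd10 lie above the limit in both GFP arrays alone, and Hoxb2, Hoxa7 and Hoxa5 lie lowest there while staying above the limit.

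Hoxb2 was the member called lower with the tag. This gene, known from the patterning of the hindbrain, read 6.77 on the carcinoma GFP array and 6.62 on the papilloma GFP array, against 8.76, 7.88 and 9.22 in carcinoma 1, 2 and 3 and 8.52 and 8.58 in papilloma 1 and 2. The groups did not overlap, and the difference was -1.89 (SE 0.35, limma adjusted p = 0.0109). The call was lost without carcinoma GFP (-1.93, limma adjusted p = 0.133) or papilloma GFP (-1.85, limma adjusted p = 0.1).

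In the Hoxa cluster 7 of 9 members had a lower mean with the tag, where 9955 of all 18193 genes did, and none passed the test. Of the 7, Hoxa4, Hoxa10 and Hoxa11 lay below background on every array. Hoxa7, a gene of the trunk, lay at 7.51 and 7.16 in the GFP arrays, below carcinoma 1, 2 and 3 at 8.05, 9.04 and 9.13 and papilloma 1 and 2 at 8.94 and 7.97. Its difference was -1.26 (SE 0.38, limma adjusted p = 0.0632), and it was called without carcinoma 1 (-1.43, limma adjusted p = 0.0315) or papilloma 2 (-1.45, limma adjusted p = 0.0403). Hoxa5 lay at 7.31 and 7.33 in the GFP arrays, against 7.61, 7.97 and 8.36 in the carcinoma and 8.08 and 9.06 in the papilloma arrays, and its difference was -0.94 (SE 0.34, limma adjusted p = 0.103). On its other probe set the GFP arrays had 6.26 and 6.22 against 7.10 to 8.23, and with that probe set in place of the first, which is prone to cross-hybridisation, the gene was called (-1.41, limma adjusted p = 0.0104). Hoxa3 lay at 5.61 and 5.35 against 5.82 to 6.26 in the untagged arrays, with a difference of -0.64 (SE 0.20, limma adjusted p = 0.0662). Both GFP arrays thus lay below all others for Hoxa3, Hoxa5, Hoxa7 and Hoxb2. Without regard to detection, the tag groups did not overlap for 10 of 33 members (40.9% of all genes), 4 of them higher (21.0%) and 6 lower (19.9%).

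Other members of the Hoxb and Hoxc clusters overlapped between the tag groups. Hoxb5 lay at 6.73 and 7.16 in the GFP arrays, against 5.29, 4.91 and 6.94 in the carcinoma and 5.996 and 5.15 in the papilloma arrays, and carcinoma 3 lay between the GFP arrays. Its difference was 1.28 (SE 0.56, limma adjusted p = 0.172), and without carcinoma 3 it was called (1.60, limma adjusted p = 0.0145). Hoxb3 differed by -0.59, but on its other probe set the plain means of the tag groups differed by 0.05. Hoxb4 differed by 0.29, Hoxb6 by -0.46, Hoxb9 by -0.67, and the Hoxc genes above background by -0.69 (Hoxc5) to 0.85 (Hoxc8). Leaving out 1 array turned both ends, Hoxc5 from -2.01 to 0.48 and Hoxc8 from -1.07 to 2.57. With each array centred on its median, the median over all genes moved from -0.05 to -0.29 and the calls from 2159 higher and 1442 lower to 1759 higher and 2442 lower. In that setting Hoxa3 and Hoxa7 were also called lower, while Hoxd8, Hoxd9 and Hoxd10 stayed higher.

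**Figure D3:**
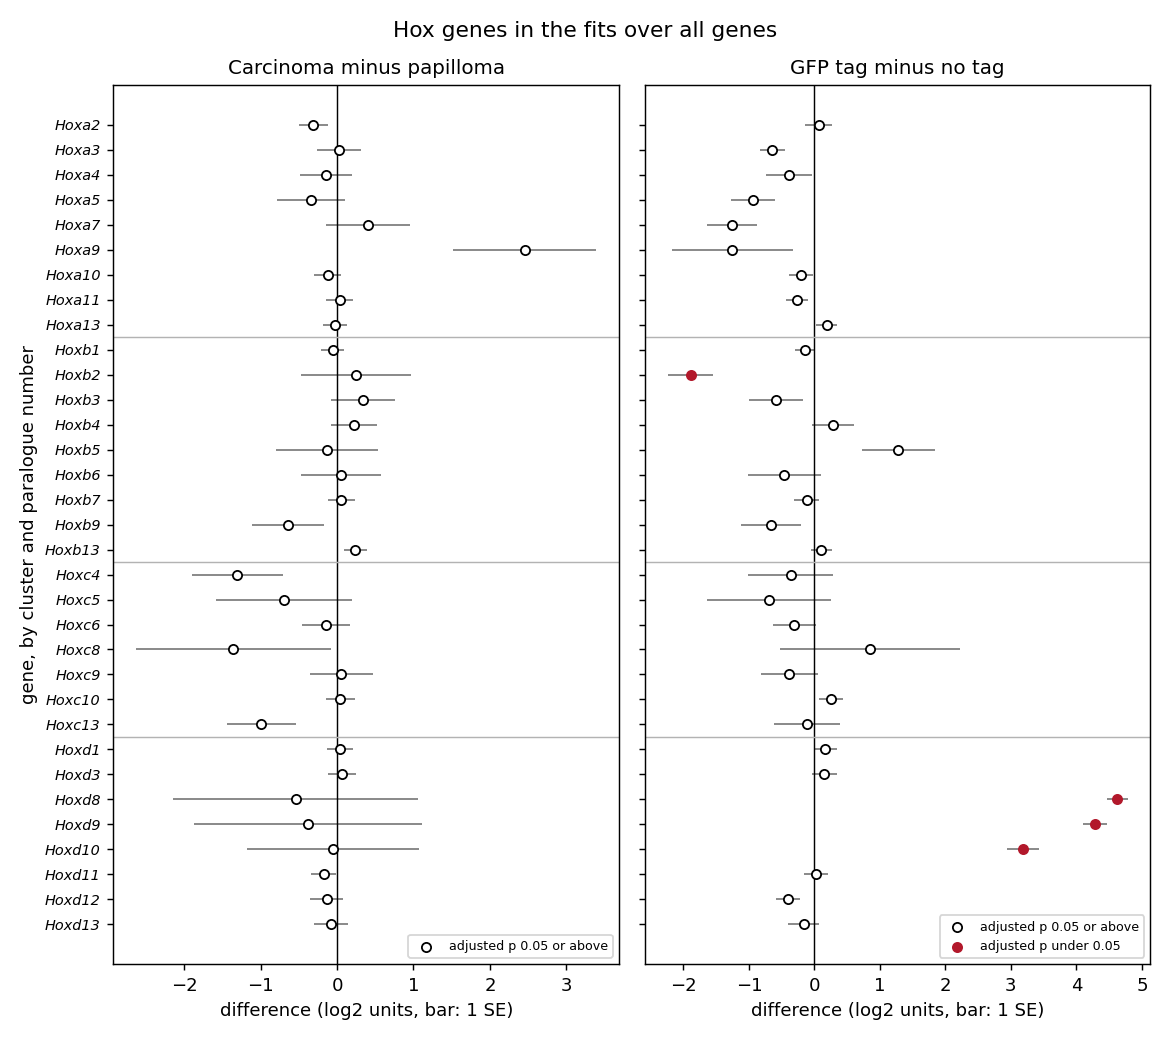
Difference of each measured Hox gene between the tumour types (left) and with the GFP tag (right) in log2 units, with bars of 1 SE from limma; filled points have an adjusted p under 0.05. The 4 filled points are Hoxd8, Hoxd9 and Hoxd10, to the right of 0, and Hoxb2, to the left, and the left panel holds none.

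Carcinoma was compared with papilloma to ask which members differ between the malignant and the benign tumours. Over all genes limma called none at an adjusted p under 0.05 (0.0%), so 0 of 33 members passed, and at an unadjusted p under 0.05 there was 1 member, Hoxa9, where 0.616% of all genes had such a p. Hoxa9, a homeobox gene of the posterior trunk known from blood stem cells and leukaemia, lay at 9.004, 9.91, 10.97 and 7.36 in carcinoma 1, 2, 3 and GFP and at 8.01, 5.52 and 7.04 in papilloma 1, 2 and GFP. The 3 untagged carcinoma arrays lay above every papilloma array, whereas carcinoma GFP lay below papilloma 1. Means were 9.31 ± 1.53 (SD, n = 4) and 6.86 ± 1.26 (SD, n = 3). The difference of 2.45 (SE 0.93, limma adjusted p = 1) did not pass the test. By exact permutation of the array labels, two-sided, Hoxa9 had p = 0.114, and a design of 4 and 3 arrays cannot go below 0.0571. The 18 members described singly were each tested so, and the lowest p among them was 0.114.

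The size of the Hoxa9 difference depended on arrays and probe set. It was 2.35 with the tag as a covariate, 3.20 without the GFP arrays, 0.32 within the GFP pair and 1.90 with the replicate block, in which carcinoma 3 has no partner and adds nothing. The difference between the GFP pair and the untagged arrays was itself not called (-2.87, SE 1.61, limma adjusted p = 1), but the pair is 1 array per tumour type. Its spread is therefore taken from the untagged arrays, and the test does not show that the values are alike. For this difference of differences 0 of 33 members were called (0.0% of all genes), and Hoxc6 alone had an unadjusted p under 0.05 (1.35, SE 0.48), where 2.14% of all genes did, 1.89% in that direction. Papilloma 2, at 5.52, was the only array below its background limit, and without it the difference was 1.79. On the other probe set papilloma 2 lay at 6.88, above its limit, and the tumour types differed by 0.67.

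Of the Hoxc genes 5 of 7 had a lower mean in carcinoma, where 9661 of all 18193 genes did, and none was called. Within the GFP pair 5 of the 7 were higher in carcinoma, among them Hoxc8 by 1.29, Hoxc5 by 1.005 and Hoxc6 by 0.78. Hoxc4 lay at 6.55, 7.02, 4.86 and 6.64 in carcinoma 1, 2, 3 and GFP and at 8.20, 7.83 and 6.68 in papilloma 1, 2 and GFP. The difference was -1.31 (SE 0.60, limma adjusted p = 1), with carcinoma 2 above papilloma GFP, and it was -0.84 without carcinoma 3 and also with the replicate block. Within the GFP pair it was -0.05. Hoxc8, a gene of the thoracic trunk, lay at 5.81, 8.55, 3.50 and 8.52 in the carcinoma and 8.79, 7.82 and 7.23 in the papilloma arrays. Its difference of -1.35 (SE 1.27, limma adjusted p = 1) rested on carcinoma 3, without which it was -0.32. Hoxc5 lay at 5.36, 7.26, 3.76 and 5.93 in the carcinoma and 7.14, 6.74 and 4.93 in the papilloma arrays, and its difference went from -0.69 to -0.09 without carcinoma 3. Hoxc6 and Hoxc9 differed by -0.15 and 0.06. A GFP array is 1 of 4 carcinoma but 1 of 3 papilloma arrays, so levels that follow the tag also move the tumour type means.

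In the Hoxb cluster the members above background differed by -0.64 (Hoxb9) to 0.34 (Hoxb3), and their tumour types overlapped. On the other Hoxb3 probe set, also above background on all 7 arrays, the tumour types differed by -0.01. Groups did not overlap for 1 of 33 members, Hoxb13, where 1.42% of all genes did so (0.506% higher and 0.912% lower in carcinoma). It was higher in carcinoma, and it lay below background on all 7 arrays. Hoxa5 and Hoxa7 differed by -0.34 and 0.41, each less than its SE of 0.44 and 0.55. The replicate block changed no call of a member.

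Among the untagged arrays Hoxa9, Hoxc8 and Hoxc4 spread most. The range over the 5 arrays exceeded 2 log2 units, a limit chosen after the values were seen, for 7 of 33 members (5.83% of all genes), but in each the lowest array was below background. With such values raised to the limit of their array, a setting also chosen after seeing the data, 3 of 33 members remained, where 4.12% of all genes had such a range. Hoxa9 then ranged over at least 4.91 units, from papilloma 2 to carcinoma 3, while its other probe set ran from 6.71 to 7.97. Hoxc8 ranged over at least 3.06 units and Hoxc4 over at least 2.47, both from carcinoma 3 to papilloma 1. Hoxb5, Hoxb9, Hoxc5 and Hoxc13 fell below the limit, at 1.63 to 1.90. On the brightest probe sets carcinoma 3 was the lowest array for Hoxc4, Hoxc5 and Hoxc8 alike. On all 3 it alone among the untagged arrays lay below the background limit. On the other Hoxc5 probe sets carcinoma 1 (4.547 and 5.055) and papilloma 2 (5.048 and 5.834) were also below their limits. Carcinoma 3 lay at 4.071 and 5.476 on them, the latter above carcinoma 1. The neighbouring Hoxc6 and Hoxc9 stayed above background in carcinoma 3, at 5.999 and 6.60, close to carcinoma 1 and below carcinoma 2 and papilloma 2.

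Carcinoma 3 was in turn the highest untagged array for Hoxa7, Hoxa9, Hoxb2, Hoxb3, Hoxb5 and Hoxb6. Hoxb6, a gene of the trunk, lay at 8.75 there, against 7.26 and 6.79 in the other untagged carcinoma and 7.93 and 6.89 in the untagged papilloma arrays. Hoxb9 went the other way, with 5.60 in carcinoma 3, below its limit, against 5.79 and 6.78 in carcinoma 1 and 2 and 7.61 and 6.49 in papilloma 1 and 2. Fibroblast (5.62), pericyte and muscle (5.88) and immune markers (5.76) were each lowest of the untagged arrays in carcinoma 3. Keratinocyte markers averaged 11.79 there, within their range. The part of these markers in the Hox levels was not tested.

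Hoxc13, a regulator of hair keratins, was above background in papilloma 2 only, where it lay at 6.77 against 4.32 to 4.88 in the other untagged arrays and 4.88 and 5.17 in the GFP arrays. It lies outside the rule for members described singly and was chosen after its values were seen. The 9 hair matrix markers averaged 6.30 in papilloma 2 and 5.14 to 5.83 in the other untagged arrays. Only 1 of the 9 lay above background on all untagged arrays, and the keratins Krt25 and Krt35 did so on no untagged array. Papilloma 2 was also the highest untagged array for the endothelial (5.89), fibroblast (7.27), pericyte and muscle (6.93) and melanocyte markers (6.10) and had the highest background limit. The part of these in the Hoxc13 level was not tested.

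**Figure D4:**
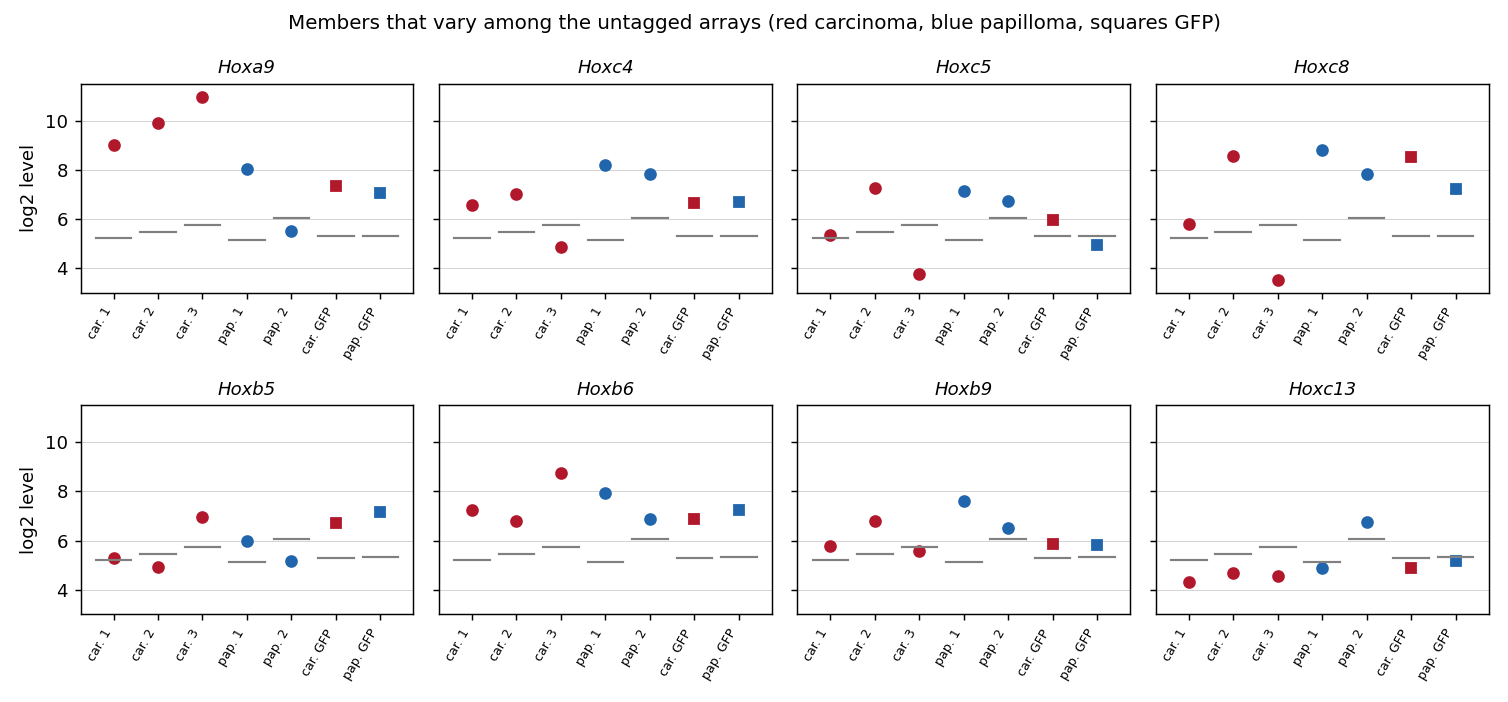
Log2 level of 8 members that vary among the untagged arrays; red marks carcinoma, blue papilloma, circles untagged and squares GFP-tagged arrays, and the grey bars mark the background limit of each array. Hoxa9 runs from 5.52 in papilloma 2 to 10.97 in carcinoma 3, while Hoxc4, Hoxc5 and Hoxc8 are lowest in carcinoma 3 and Hoxc13 is highest in papilloma 2.

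Proteins of the Pbx, Meis and Pknox families bind DNA together with Hox proteins. Of 8 measured cofactors 1 rose and 1 fell with the tag and 0 were called between the tumour types, with medians of -0.01 and 0.02. For this and the lists that follow, 11.9% of all genes were called higher and 7.93% lower with the tag. Pbx3 averaged 9.82 in the GFP and 8.53 in the untagged arrays (limma adjusted p = 0.0121) and Pbx2 7.50 and 8.29 (limma adjusted p = 0.0352). Between the tumour types the widest differences were those of Meis1, at 0.83 (SE 0.74), and Meis2, at 0.57 (SE 0.29). Meis1, like the brightest Hoxa9 probe set, was highest in carcinoma 3, at 9.17, and lowest in papilloma 2, at 5.63. Meis1 had 6.67, 6.95 and 7.90 in carcinoma 1, carcinoma 2 and papilloma 1. On the other Hoxa9 probe set carcinoma 3 was also highest (7.97), but papilloma 2 (6.88) lay above papilloma 1 (6.71). How many of all genes share these extremes was not counted.

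Trithorax proteins keep Hox genes active and Polycomb proteins keep them silent. Of 13 activators, which include Kmt2a, Men1 and the Cdx factors, 0 rose and 3 fell with the tag: Dpy30 (-1.27), Ash2l (-1.19) and Psip1 (-1.18), the first 2 being core subunits of histone methyltransferase complexes. Of 20 Polycomb genes, Ezh1, a methyltransferase of the repressive mark, rose by 1.08 and Ring1, a ubiquitin ligase, fell by 0.82 in the GFP arrays, and 18 were not called. None of either list was called between the tumour types, where Psip1 and Kmt2d differed by 0.68 and 0.38 and Phc1 and Cbx6 by 0.67 and 0.53. Cdx1, Cdx2 and Cdx4, upstream regulators of Hox genes in the embryo, lay below background on all arrays. Of 9 measured RNAs and neighbours of the clusters, Hoxd3os1 and Skap2 rose and Lnpk and Mtx2, which flank the Hoxd cluster, fell by 1.02 and 0.92 with the tag. Between the tumour types 0 were called, and Hoxd3os1 and Hoxb5os differed by -1.01 and -0.82.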

How the data were processed

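RNA of sorted tumour cells was hybridised to 7 Affymetrix mouse arrays of the 430 PM strip design. The deposited log2 values had been made with RMA by the authors, per the labels' protocols, and RMA and affy are listed, with no version, in the submitters' processing notes; the log2 scale was read from the values, 2.72 to 14.51. The platform annotation of 2016 gave 1 symbol to 34958 of 45101 probe sets, updated through RefSeq's GRCm38.p6 table where the gene identifier matched (34754). The brightest probe set stood for each of 18193 genes, dim ones kept.

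All fits ran over all genes with limma 3.58.1 in R 4.3.3 (lmFit, eBayes, Benjamini-Hochberg, threshold 0.05): tumour type alone, tag with tumour type as covariate, and their interaction. Single members had exact two-sided permutation tests in scipy 1.17.1. Members and lists were chosen with earlier results of these data known. Members above background on 4 or more arrays, called, or with an unadjusted p under 0.05 were described singly (18). Part of them were given with every array, and others, such as Hoxb3, Hoxb4, Hoxc6 and Hoxc9, mainly by their differences. Of each other list the called genes, up to 4, or the 2 with the largest change were given. Deviations of same-numbered arrays correlated at 0.476, 0.194 and 0.861 (GFP), so the replicate number was tried as a block; the origin of the numbers is not stated. The procedure was tested on simulated data with known changes. The arrays simulated for the tumour type fit held no tag difference, so their recovery does not carry over to that fit here. The number of arrays limits the precision. Figures were drawn with matplotlib 3.10.9.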

Additional observations from a re-analysis of the deposited data

Results flagged for a closer look

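Among the 4 carcinoma arrays, the GFP array lay far above the other 3 for Hoxd8 (9.63), Hoxd9 (9.31) and Hoxd10 (7.17), and the gap to the nearest array made up nearly the whole range. The share of the range was 0.969, 0.919 and 0.896. Chance passes the limit used in about 1 of 20 groups, and 19 members were examined. These gaps restate the tag difference and add no evidence for it. The papilloma GFP array showed the same 3 genes high, but a group of 3 arrays was not examined in this way.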

How the results depend on the processing

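Calls of Hoxd8, Hoxd9 and Hoxd10 held under every alternative run. Genes called with the tag numbered 6819 with array weights, in place of 3601, and 861 to 3955 with 1 array left out (861 without carcinoma GFP, 1462 without papilloma GFP). Members called with the tag numbered 10 with array weights, in place of 4, and 3 to 5 with 1 array left out. Tumour type calls stayed at 0 in every fit, including the replicate block. The test of whether the tumour types differ more in the GFP pair called 0 genes, and 3 with a variance trend, with 0 members. Its GFP side is 1 array per tumour type, so the untagged arrays alone supply the spread and those 3 calls carry no weight. With the array median as limit, 9 members were above background. The causes were not tested.

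Directions of uncalled differences turned, also of some that were not small, such as the tag differences of Hoxa9 (-1.25) and Hoxc8 (0.85). For the tumour types, Hoxa3 was -0.0071 with the mean of probe sets, -0.023 with the replicate block, -0.027 with the tag as covariate and -0.15 without the GFP arrays. With the replicate block Hoxb2 was -0.11, Hoxb6 -0.39, Hoxd9 0.0623 and Hoxd10 0.31. With the tag as covariate Hoxd10 was 0.22, with array weights Hoxb6 was -0.29, and without the GFP arrays Hoxb5 was 0.14 and Hoxc9 -0.0495. For the tag, Hoxb4 was -0.0134 with the mean of probe sets. With 1 array left out, tumour type differences ran from -0.26 to 0.20 (Hoxa3), -0.76 to 0.11 (Hoxa5), -0.0235 to 0.87 (Hoxa7), -0.39 to 0.71 (Hoxb2), -0.12 to 0.45 (Hoxb4), -0.61 to 0.39 (Hoxb5), -0.39 to 0.34 (Hoxb6), -0.48 to 0.10 (Hoxc6), -0.26 to 0.37 (Hoxc9), -1.71 to 0.98 (Hoxd8), -1.50 to 0.98 (Hoxd9) and -0.96 to 0.85 (Hoxd10). Tag differences ran from -2.60 to 0.27 (Hoxa9), -0.061 to 0.68 (Hoxb4), -1.33 to 0.50 (Hoxc4), -2.01 to 0.48 (Hoxc5), -1.02 to 0.33 (Hoxc6) and -1.07 to 2.57 (Hoxc8). The background limit is a stand-in without detection calls, and genes near it have no firm order.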

Other observations

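Of 15 other regional transcription factors of skin and limb, 5 were called higher and 1 lower in the GFP arrays (11.9% and 7.93% of all genes), 9 were not called, and 0 were called between the tumour types. Of the 5, Emx2 was above background on no array and Shox2 on 1. Prrx1, a factor of limb and dermal mesenchyme, averaged 9.12 in the GFP and 4.32 in the untagged arrays (limma adjusted p = 0.000381), and Tbx15 and Tbx18, T-box factors, averaged 7.18 and 6.20 against 4.86 and 3.98. Of the 15 factors, 8 lay below background in all untagged arrays. Of these, Prrx1, Tbx15 and Tbx18 alone passed on both GFP arrays, as Hoxd8, Hoxd9 and Hoxd10 did. This pattern was shown by 2.61% of all genes, and a link to the Hoxd genes was not tested. Dlx5, a factor of limb and bone, averaged 5.13 against 7.44 (limma adjusted p = 0.00111). Pitx1, known from the hindlimb, lay at 10.78, 10.02, 10.99 and 8.03 in carcinoma 1, 2, 3 and GFP and at 10.76, 6.70 and 8.22 in papilloma 1, 2 and GFP. It was highest in carcinoma 3 and lowest in papilloma 2, the same arrays as for the brightest Hoxa9 probe set but not for the other. Between the tumour types Pitx1 differed by 1.40 (SE 1.09) and Lmx1b by -0.38 (SE 0.21).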
